A study of Drosophila melanogaster with 2 samples.

Results

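The elav family of Drosophila melanogaster consists of 3 paralogous genes, elav, fne and Rbp9, which were 3 of the 13945 protein-coding genes on the main chromosome arms. They were taken by name, and they were selected on these data: the peak of tagged Pho at the start of elav, seen in the optimal list, was the reason for the choice. All peak counts and signal values at these genes are therefore given as description, with no test. A summit, the base of strongest enrichment within a listed interval, was assigned to a gene when it lay in the gene or within 5000 bp of either end. By this rule 4 of the 4293 summits of the optimal list belonged to the 3 genes, as did 31 of the 30000 entries of the list from pooled reads, 29 of 30000 in replicate 3 and 34 of 30000 in replicate 4.

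The series mapped Pleiohomeotic (Pho) by chromatin immunoprecipitation and sequencing in whole embryos, 0 to 24 h old and of mixed sex, from a transgenic line that stably expresses Pho with GFP fused to its C terminus. An anti-GFP antibody pulled down the fusion protein from chromatin that sonication had sheared to between 200 and 800 bp. There was 1 group with 2 biological replicates, numbered 3 and 4, so no comparison between conditions can be made and no p-value is given. Whether the untagged pho gene is still present in the line is not given in the sources used here, no library of untagged embryos was used here, and each library averages over all cells and ages of the embryo. The files give no read counts, so depth is unknown. Whole embryos hold neurons among many other cell types, and a listed peak does not say in which cells Pho was bound.

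Proteins of the Elav (Hu) family bind RNA through RNA recognition motifs, prefer U-rich and AU-rich stretches, and act in splicing, choice of poly(A) site, stability and translation of mRNAs. In Drosophila, Elav is a mainly nuclear protein of postmitotic neurons and the standard marker of that cell type. Fne (found in neurons) is a neuronal paralog that is mostly cytoplasmic, and Rbp9 acts in neurons and in germ cells of the ovary. Pho is a zinc finger protein of the Polycomb group, a relative of mammalian YY1 whose binding motif has the core GCCAT. With Sfmbt it forms a complex that binds Polycomb response elements, and it is also found at promoters of many active genes.

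The elav gene (FBgn0260400) lies on the minus strand of chromosome X at 509235 to 523226 (dm6) and has 4 annotated transcripts with 2 distinct starts, at 523226 and at 520285. The main summit of tagged Pho lay upstream of the outer start, a weaker one farther upstream in the same interval, and another in the first intron. The sequences of 101 bases centred on these summits are shown because these are the only optimal summits within 1000 bp of a family start. All sequences are given 5′ to 3′ on the strand of the gene, read from the RefSeq copy of genome release 6 (dm6), and capitals mark matches to any of the motifs described further on, on either strand.
elav, main summit, chrX:523389-523489, minus strand: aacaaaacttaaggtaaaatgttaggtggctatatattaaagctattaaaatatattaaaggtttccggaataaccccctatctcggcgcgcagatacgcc
elav, farther upstream summit, chrX:523592-523692, minus strand: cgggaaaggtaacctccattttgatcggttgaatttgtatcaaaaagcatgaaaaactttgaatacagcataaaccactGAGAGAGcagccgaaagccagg
elav, first intron summit, chrX:522596-522696, minus strand: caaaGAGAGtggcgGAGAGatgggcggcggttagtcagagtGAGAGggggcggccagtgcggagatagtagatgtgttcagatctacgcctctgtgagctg
The 250 bases before the outer starts of elav and fne and before the Rbp9 start with the strongest pooled entry are shown for comparison. The elav stretch holds the main summit.
elav promoter, chrX:523227-523476, minus strand: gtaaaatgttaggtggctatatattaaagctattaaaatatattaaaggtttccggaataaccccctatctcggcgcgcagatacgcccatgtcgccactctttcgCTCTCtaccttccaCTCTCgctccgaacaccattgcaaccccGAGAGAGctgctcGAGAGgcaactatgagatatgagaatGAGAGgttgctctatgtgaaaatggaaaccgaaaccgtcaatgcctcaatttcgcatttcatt
fne promoter, chrX:12917227-12917476, plus strand: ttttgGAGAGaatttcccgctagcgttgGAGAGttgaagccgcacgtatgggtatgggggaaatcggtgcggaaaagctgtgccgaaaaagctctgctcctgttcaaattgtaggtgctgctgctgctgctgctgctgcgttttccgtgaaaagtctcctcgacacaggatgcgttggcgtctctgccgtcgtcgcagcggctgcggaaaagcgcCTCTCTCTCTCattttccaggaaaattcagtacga
Rbp9 promoter, chr2L:2956661-2956910, plus strand: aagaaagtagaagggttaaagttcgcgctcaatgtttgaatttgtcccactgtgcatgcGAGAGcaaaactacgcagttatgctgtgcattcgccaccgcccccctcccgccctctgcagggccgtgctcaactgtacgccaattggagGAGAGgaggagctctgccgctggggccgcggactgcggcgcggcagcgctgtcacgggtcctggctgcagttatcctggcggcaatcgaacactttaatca
The only optimal summit near Rbp9 lies between a pair of other genes, and its 101 bases are shown on the plus strand.
Rbp9 window, summit at 2972760, chr2L:2972710-2972810, plus strand: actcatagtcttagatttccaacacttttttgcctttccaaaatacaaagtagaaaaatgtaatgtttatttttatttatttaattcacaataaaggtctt

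The main summit of elav stood at X 523439, 213 bp upstream of the outer start. Its signal value, the enrichment score that the authors deposited with each peak, was 521 on pooled reads, 347 in replicate 3 and 175 in replicate 4. The optimal list ran from 91.9 to 2582.7 with a median of 145, so the elav value lay far above the middle of the list and well below its top. Signal values differ in scale between lists, and ranks within a list (1 being the strongest) were used to set lists side by side. The entry ranked 158 of 4293 in the optimal list, 130 of 30000 in replicate 3 and 244 of 30000 in replicate 4, and was thus among the strongest entries in both libraries. Replicate 3 placed its summit on the same base and replicate 4 placed it 33 bp away. The optimal list consists of the 4293 strongest entries of the pooled list, which was called on the reads of both replicates, so pooled and replicate values are not independent of each other. On chromosome X the elav summit ranked 29 of 772 optimal summits.

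A summit in the first intron of elav, at X 522646 and 580 bp downstream of the outer start, had a signal value of 254 and rank 771 in the optimal list. Its signal value was 146 in replicate 3, with rank 876, and 104 in replicate 4, with rank 748. The replicate summits lay 12 and 2 bp from it, and its interval of 196 bp was separate from that of the main summit. The third summit, at X 523642 and 416 bp upstream, shared an interval of 344 bp with the main summit and had a signal value of 96.0 at rank 3991. It stood just inside the edge of the optimal list, whose weakest entry had 91.9 and was followed in the pooled list by an entry at 91.8. Replicate 3 had an entry on the same base, with a signal value of 74.8 at rank 2852. Replicate 4 had none within 100 bp, its nearest summit being the main one, 170 bp away. Of the 3 optimal summits of elav, 2 therefore had a counterpart in both replicates, against 4053 of all 4293 optimal summits (94.4%). Shared intervals were rare in the optimal list: 9 intervals held 18 of its 4293 summits (0.419%).

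Farther upstream, 3459 bp from the outer start, an entry at X 526685 fell just outside the optimal list with a signal value of 88.6 on pooled reads and rank 4541. It was present in replicate 3 (55.9, rank 4433) and in replicate 4 (33.1, rank 5425). Inside the elav gene the pooled list held 9 entries. Besides the intronic summit the strongest, in the 3′ UTR, reached 56.6 at rank 8535. The inner start of elav, at 520285, had no entry within 1000 bp in the pooled list or in replicate 3, and 1 in replicate 4 with a signal value of 20.8 at rank 12628. The strong entries of elav thus stood at its outer start, from which 3 of its 4 transcripts begin.

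**Figure D1:**
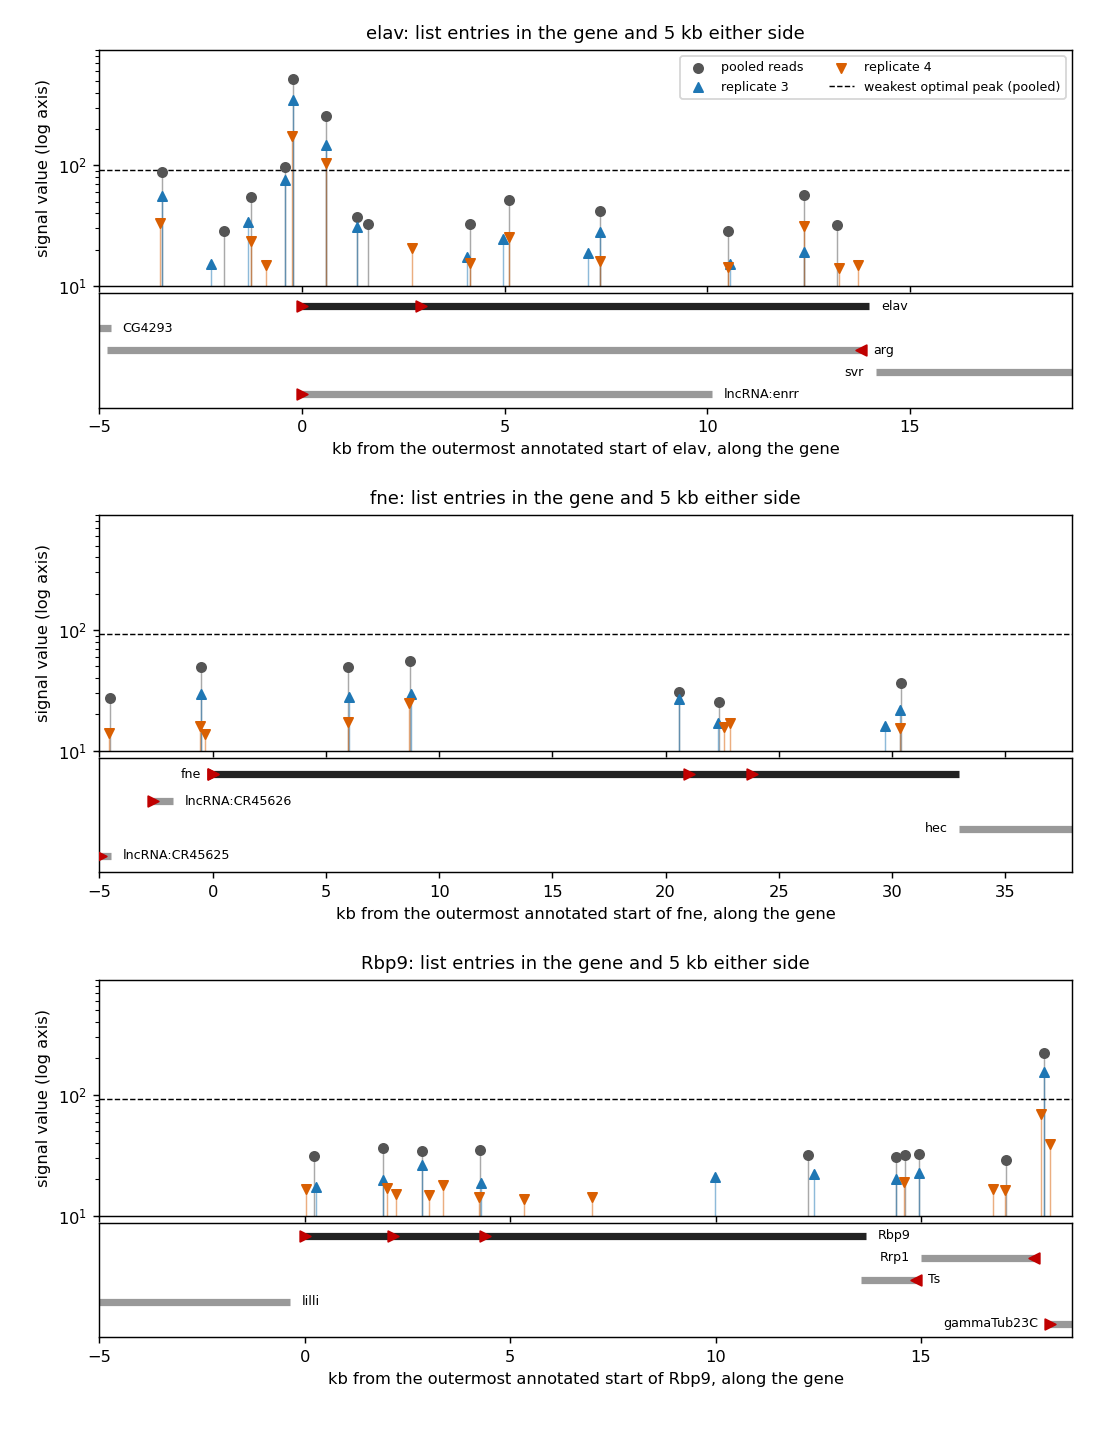
Entries of the pooled, replicate 3 and replicate 4 lists in the windows of elav, fne and Rbp9, by distance in kb along each gene from its outermost start (x axis) and signal value on a log axis (y axis). Bars below are gene models, arrowheads mark transcript starts and their direction, and the dashed line is the weakest optimal peak, 91.9 on the pooled scale. Pooled entries above the line stand at the start of elav and between Rrp1 and gammaTub23C at the right end of the Rbp9 window, while all 7 of fne lie below it.

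The fne gene (FBgn0086675) lies on the plus strand of chromosome X at 12917477 to 12950417 and has 11 transcripts with 4 distinct starts. No optimal summit lay in its window of 42941 bp. The pooled list held 7 entries there, with signal values from 25.1 to 54.9, the strongest in an intron at 12926202 with rank 8952. That intronic entry had a signal value of 29.4 and rank 11091 in replicate 3 and of 24.8 and rank 9048 in replicate 4. At the outer start, 512 bp upstream, the pooled entry had a signal value of 49.3, rank 10428 and a −log10 q-value of 0.88. The main elav summit had 3.89, a value shared by the intronic elav summit at rank 771, so it does not grade strong summits. The entries corresponding to that of the outer fne start were 29.3 (rank 11120) in replicate 3 and 16.1 (rank 20894) in replicate 4. The start at 12938517 had a pooled entry of 30.7 at rank 21860, an entry of 26.8 at rank 12681 in replicate 3 and none in replicate 4. At the start at 12941272, 1 entry was found, in replicate 4 (17.1, rank 18432), 970 bp upstream. The nearest optimal summits outside the window lay 7470 bp before the gene, 52 bp from a start of CG4645 (signal value 104), and 139620 bp beyond it, near hep, the gene of a JNK kinase (94.5).

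The Rbp9 gene (FBgn0010263) lies on the plus strand of chromosome 2L at 2954762 to 2968434 and has 9 transcripts with 3 distinct starts. None of these starts had an optimal summit within 1000 bp. Pooled entries were present at each of them, with signal values of 30.9 at the outer start, 36.0 at the middle start (rank 16907, 239 bp upstream) and 35.0 at the inner start. The strongest start entry was 26.4 in replicate 3 (rank 12880) and 16.8 in replicate 4 (rank 19066), both at the middle start but on opposite sides of it. These entries belong to the weak part of lists that hold peaks and background by design, and their −log10 q-values were 0.31 on pooled reads, 0.67 in replicate 3 and 0.18 in replicate 4. The strongest start entries of fne and Rbp9 lay close together in each replicate.

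In both replicates the strongest start entry of elav stood far above those of its paralogs. In replicate 3 it was 347 for elav, 29.3 for fne and 26.4 for Rbp9. In replicate 4 it was 175, 17.1 and 16.8. The value of fne came from its outer start in replicate 3 and from an entry 970 bp upstream of the start at 12941272 in replicate 4. By the strongest start entry fne was slightly above Rbp9 in both replicates, and elav was above both. At its outer start alone fne had 16.1 in replicate 4, below the 16.8 of Rbp9. The small gap between fne and Rbp9 thus depends on which fne start is taken. The contrast between elav and its paralogs is the one on which the genes were chosen.

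**Figure D2:**
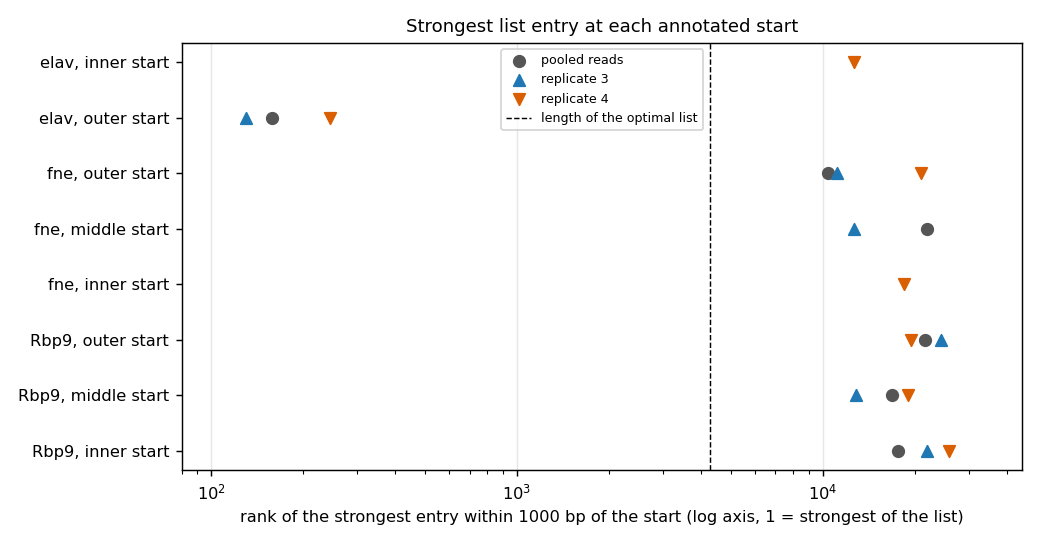
Rank of the strongest entry within 1000 bp of each annotated start (x axis, log scale, 1 is the strongest of the list) for the starts of elav, fne and Rbp9 (rows), in the pooled, replicate 3 and replicate 4 lists. The pair of fne starts 7 bp apart is drawn once, a missing symbol means that the list had no entry there, and the dashed line marks rank 4293. The outer start of elav ranks 130 to 244, and every other start ranks at 10428 or beyond.

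Neighbouring starts were checked for each optimal summit. At elav, 1 other gene had a start within 1000 bp of the summits: lncRNA:enrr, a noncoding RNA gene on the same strand annotated with the same start base, 523226. Its start and that of elav cannot be told apart by these peaks. The gene arg, which encodes arginase, runs on the opposite strand and spans all 3 summits, but its start at 509435 lies at the other end of elav. No further gene had a start within 2000 bp of the elav summits. The nearest optimal summits outside the window lay 9490 bp beyond the 3′ end of elav, 213 bp from a start of svr, a carboxypeptidase gene (signal value 284), and 98066 bp upstream of elav near CG13365 (143). The neuronal gene Appl, which starts at 530501 upstream of elav, had no optimal summit in its own window.

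In the Rbp9 window the optimal summit at 2L 2972760 lay 4326 bp past the 3′ end of the gene, with a signal value of 223 and rank 981. It stood between the diverging starts of Rrp1, which encodes a DNA repair endonuclease, at a distance of 252 bp, and of gammaTub23C, which encodes a gamma-tubulin, at 131 bp. Replicate 3 had a summit 1 bp away with a signal value of 154 at rank 793, and replicate 4 had one 70 bp away with 69.0 at rank 1619. In replicate 4 a further entry at 2972901 (39.0, rank 4134) lay on the gammaTub23C side. The summit is nearer to either of these starts than to any start of Rbp9, the closest of which is 13613 bp away. Next beyond the window, a summit of signal value 263 lay 57 bp from a start of CG3165, and on the other side one of 156 lay 57653 bp away, its nearest start being that of lilli, a gene for a transcription elongation factor. No optimal summit within the windows lay near a start of CG4293, upstream of elav, of lncRNA:CR45626 or hec, on either side of fne, or of Ts (thymidylate synthase), just past Rbp9.

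The background over all protein-coding genes shows how common such counts are. An optimal summit in the gene or within 5000 bp was present for 7105 of 13945 genes (51.0%), and among the 3 family genes for elav and Rbp9. At least 3 optimal summits in that window, the count at elav, were found for 1303 genes (9.34%). A start summit, an optimal summit no more than 1000 bp from any annotated start of the gene, was present for 3642 genes (26.1%), and in the family for elav alone. At least 3 such start summits, again the count at elav, were found for 89 genes (0.638%). Both counts at elav include the summit at rank 3991, which had no counterpart within 100 bp in replicate 4. A start summit as strong as that of elav or stronger was found for 182 genes (1.31%, elav counted). Since the genes were selected on these peaks, nothing is read from the family's counts against these shares. Among the 3642 genes with a start summit, the strongest start signal had a median of 162 and quartiles of 119 and 250, and 95% of these genes were below elav.

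Genes with more annotated starts offer more places for a start summit. Of genes with 1 distinct start 20.5% had an optimal start summit, of those with 2 starts, as elav has, 36.6%, of those with 3, as Rbp9 has, 47.8%, and of those with 4, as fne has, 57.2%. In the pooled list of peaks and background, a start entry was present for 80% of genes with 2 starts, 90.6% with 3 and 94.4% with 4, so most genes with as many starts as fne and Rbp9 have some start entry in it. Entries of the pooled list per 10000 bp of window numbered 5.84 for elav, 1.63 for fne and 4.22 for Rbp9, against a median of 3.21 over all genes with quartiles of 1.49 and 5.13. The long fne gene was thus toward the sparse side and elav above the upper quartile. Of the pooled entries, 8 of 14 at elav, 4 of 7 at fne and 3 of 10 at Rbp9 had a counterpart in both replicates, against 42.2% of all 30000.

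**Figure D3:**
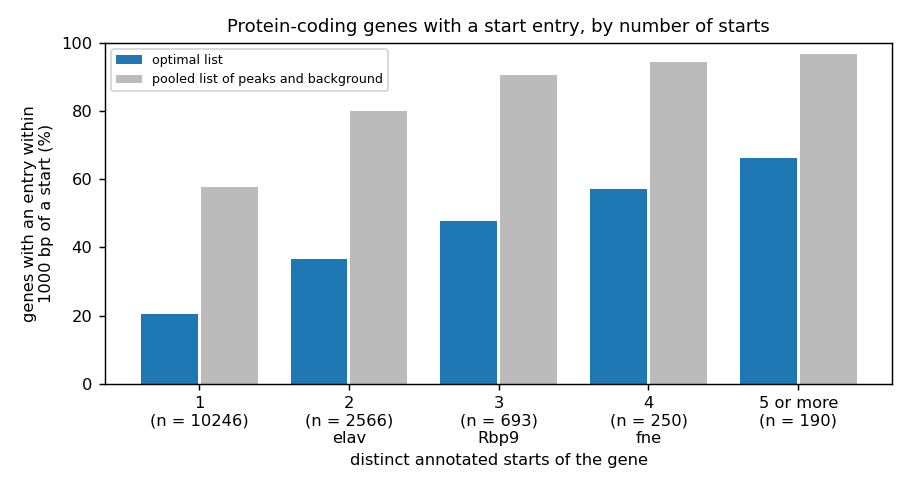
Share of protein-coding genes (y axis, percent) with an entry within 1000 bp of a start, by the number of distinct annotated starts (x axis, number of genes given), for the optimal list (blue bars) and the pooled list of peaks and background (grey bars). Both shares rise with the number of starts, from 20.5% to 66.3% in the optimal list, and the labels elav, Rbp9 and fne mark the class of each family gene.

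Other genes of neurons and of RNA binding were taken as lists for context, described by counts beside the 26.1% of all genes. Of 20 pan-neuronal and synaptic genes, 3 had an optimal start summit (15%). These were Nrx-1, the synaptic adhesion protein neurexin (signal value 284), Ddc, the dopa decarboxylase of dopamine and serotonin synthesis (123), and Syx1A, the syntaxin of synaptic vesicle fusion (110). Among those without one were Appl (amyloid precursor protein-like), brp (the active zone scaffold Bruchpilot), cac (a presynaptic calcium channel) and ChAT (choline acetyltransferase). Of 4 genes known as RNA targets of Elav, 2 had a start summit: Nrg, the adhesion protein neuroglian (121), and ewg, a transcription factor (106). The others were arm, the fly beta-catenin, and fne, itself a member of the family. Of 15 neural fate and glial genes, 2 had one (13.3%): scrt, a zinc finger factor of neurons (122), and SoxN, a Sox factor of the neuroectoderm (96.2). The proneural gene ac, the neuroblast gene ase and the transcription factor genes D and dpn were among those without. The strongest of these start summits, at Nrx-1, was below that of elav, which was chosen for its start peak. In the gene or within 5000 bp, 10 of the 20 pan-neuronal genes had an optimal summit (50%), against 51% of all genes. By the same rule 3 of the 4 RNA targets of Elav and 5 of the 15 neural fate genes (33.3%) had one.

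Of 21 genes for other RNA-binding proteins, 15 had an optimal start summit (71.4%). The strongest were mub, a KH-domain protein (627, rank 109), brat, a translational repressor and tumour suppressor (429, rank 252), and ps (pasilla), a splicing factor (260, rank 741). They were followed by shep, an RNA-binding protein of neurons (189), Sxl, the master gene of sex determination and a splicing regulator (183), and pAbp, the poly(A)-binding protein (179). Those without a start summit included bru1, bru3, nito and nonA. Of the 15, mub was above elav and the others below it. An optimal summit in the gene or within 5000 bp was present for 17 of the 21 genes (81%). The median number of distinct starts was 4 in this list and among the RNA targets of Elav. It was 2 among the pan-neuronal genes, 1 among the neural fate genes and 1 over all genes. Over all protein-coding genes, a start summit was present for 57.2% of those with 4 starts, 36.6% with 2 and 20.5% with 1. The part of the number of starts in the list counts was not tested.

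**Figure D4:**
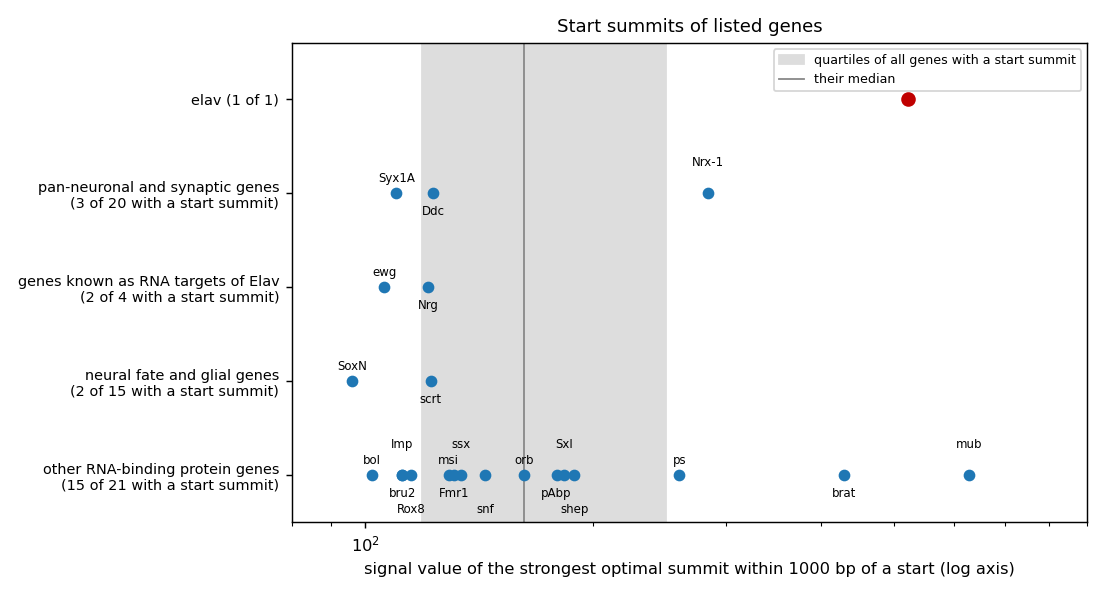
Signal value of the strongest optimal summit within 1000 bp of a start (x axis, log scale) for elav and for the members of 4 gene lists that have one (rows, points are genes). Grey shading spans the quartiles, 119 to 250, and the line the median, 162, of all 3642 genes with a start summit. The value of 521 at elav exceeds every neuronal gene shown, and 1 RNA-binding protein gene, mub at 627, lies above it. The gene elav was chosen for this peak, so nothing is read from its place.

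Motifs were searched by their letters on both strands. The core of the Pho motif was searched as GCCAT, and a longer form of it as AGATGGC, whose matches hold GCCAT on the other strand. The word GAGAG is bound by the GAGA factor and Pipsqueak, and GTGTG is a repeat found in Polycomb response elements. The Dref element was searched as TATCGATA, which can overlap the shorter word CGATAG. The core promoter element searched as GGTCACACT holds GTGTG on its other strand. The TATA box was searched as TATAAA and the Zelda motif as CAGGTAG. Within 50 bp of the main elav summit none of the 9 was found, and none within 50 bp of the summit between Rrp1 and gammaTub23C. The first intron summit of elav had 3 matches to GAGAG and no other motif, and the farther upstream summit had 2 overlapping matches to GAGAG. Over all 4293 optimal windows of the same length, GAGAG was present in 11.2%, GCCAT in 15.8%, GTGTG in 18.6%, TATAAA in 16.5%, CGATAG in 9.06%, TATCGATA in 3.35%, AGATGGC in 2.21%, GGTCACACT in 1.44% and CAGGTAG in 0.443%. None of the 3 elav windows holds GCCAT, nor do most windows of the list. The share of G and C was 36.6% at the main summit, equal to the median of all optimal windows, 58.4% at the intronic summit and 23.8% at the summit between Rrp1 and gammaTub23C.

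In the 250 bases before the outer elav start there were 6 matches to GAGAG, in both orientations, all between the main summit and the start, and no match to the other motifs. As many or more were found in 2.48% of the 19253 stretches of this length before protein-coding starts, of which 29.1% had at least 1. The outer start of fne, which has no optimal summit, also had 6, and the fne start at 12938517 had 13, a count reached by 0.234% of stretches. Many of these matches overlap within a single GA or CT repeat, 12 of the 13 at 12938517 and 4 of the 6 at the outer fne start. With overlapping matches counted once, a count chosen after seeing the data, elav had 5 (as many or more in 0.862% of stretches), the outer fne start 3 (4.89%) and the start at 12938517 had 2 (10.5%). Of the Rbp9 starts, the middle and inner ones had 2 GAGAG matches each. The outer one had none and held GGTCACACT and TATAAA, which are present in 2.83% and 39.6% of all stretches. GCCAT was found before 1 family start, that of fne at 12941272, against 35.6% of all stretches.

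In global alignments of 1 annotated protein per gene, fne (371 residues) and Rbp9 (444 residues) were identical at 72.4% of 341 aligned residues. Elav (483 residues) was identical to Fne at 65.1% of 344 and to Rbp9 at 56.2% of 402. The pair nearest in protein sequence, Fne and Rbp9, was also the pair without an optimal start summit. The genes were chosen on that contrast and number only 3, so nothing is read from this overlap.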

How the data were processed

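Peak lists from chromatin immunoprecipitation of Pho-eGFP in whole embryos (2 biological replicates, 1 technical replicate each) were used as deposited on dm6, and the lists on dm3 were left out. The deposited texts describe the optimal list as thresholded by irreproducible discovery rate, and the pooled and replicate lists as peaks with background. The sources used here name no aligner and no peak caller. Each deposited entry has a signal value, a −log10 q-value, and a summit offset, which was added to the start to place the summit. The signal value ranked entries within a list. Coordinates are 1-based.

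Gene models came from Ensembl release 115, and sequence from RefSeq release 6. All peaks and gene models ended within the RefSeq arm lengths. A start summit lies within 1000 bp of any annotated start of the gene, and a counterpart within 100 bp. Proteins translated from annotated coding sequence were aligned globally with BLOSUM62 and free end gaps, and identity was taken over aligned residue pairs. Python 3.11.15, numpy 2.4.6, pandas 2.3.3, Biopython 1.88 and matplotlib 3.10.9 were used. Counting was tested on simulated data with planted summits.

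The genes, the gene lists, motifs and distances were chosen with earlier results of these data known. Genes named are the 3 family genes, every gene with a start within 1000 bp of their optimal summits, their nearest neighbours, and of each list up to 6 members with a start summit by signal value and up to 4 without one in alphabetical order. Genes nearest to summits just outside the windows, the gene arg, Appl and hep were named after their values were seen. Alternatives were other windows and distances, the 2146 strongest optimal entries, and as many strongest entries of 1 replicate alone.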

Additional observations from a re-analysis of the deposited data

How the results depend on the processing

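No paired analysis was possible because there is 1 group only. Of 77 alternatives over 28 results, 50 were labelled as giving a like value and 27 as moving it. The labels were uneven between kinds of result. Going from 3 to 2 optimal summits at elav was labelled like, as was a Rbp9 start distance going from -239 to 216 bp. A share going from 26.1% to 25.5% was labelled moved. The tally is therefore no measure of how stable the results are. The window set the counts: with the gene body alone the optimal summits numbered 1 at elav and 0 at Rbp9, with 2000 bp either side Rbp9 had 0, and with 10000 bp either side fne had 2 and Rbp9 2. Taking as many strongest entries of 1 replicate alone gave elav 2 to 3 summits and Rbp9 1 to 2, where replicate 4 splits the entry between Rrp1 and gammaTub23C. The share of genes with a start summit was 23.2% at 500 bp, 30.8% at 2000 bp, 15.3% with the 2146 strongest optimal entries, and 25.5% to 26.2% with 1 replicate left out. With the 2146 strongest entries the lists had start summits at 1 pan-neuronal gene, 0 RNA targets of Elav, 0 neural fate genes and 7 other RNA-binding protein genes. With 1 replicate left out, RNA targets of Elav had 1 to 2 and neural fate genes 1 either way. Pan-neuronal genes then had 3 to 4 and other RNA-binding protein genes 15 to 16. Appl, without an optimal start summit, had a start entry at rank 3390 in replicate 3 and at rank 10773 in replicate 4. The strongest start entry lay at -246 bp for elav and -970 bp for fne in replicate 4, and at 704 bp for Rbp9 in replicate 3. Within 100 bp of the summit, 2 motifs were present at the intronic elav summit, 1 at the main elav summit and 2 between Rrp1 and gammaTub23C. Counting overlapping GAGAG matches once, added after seeing the data, was labelled as moving the count at 4 of the 9 starts of the family. The count at the outer elav start went from 6 to 5 and was labelled like. The wider windows and shorter lists change these values by construction. Depth is unknown, and no error can be given for the weak entries of fne and Rbp9. The lack of an optimal peak does not show that Pho is absent there.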
